A study of Mus musculus with 9 samples.

Results

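The genes described here are 50 genes of the cell cycle and of DNA replication, taken as a fixed list of symbols: 5 D-type cyclins and their kinases, 8 genes of G1/S control, 15 of DNA replication and 22 of mitosis. A member was measured where at least 1 of its probes had a detection p-value under 0.05 on at least 3 of the 9 arrays, and its probe with the highest mean stood for it. By this rule 44 of the 50 members were measured, among 10072 genes in all. Of the 6 others, all mitotic, Ccnb1 and Mki67 have no probe under their symbol in the annotation used here, and Ccnb2, Bub1, Kif20a and Cenpe were detected on at most 2 arrays. Each of the 44 was detected on at least 1 array of every group.

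A cell enters the cycle when D-type cyclins activate CDK4 and CDK6, which phosphorylate the retinoblastoma protein and free E2F transcription factors. E2F then drives cyclin E, the licensing factors and the MCM helicase that load on replication origins, and the enzymes that make deoxynucleotides. Mitotic genes come later, when FOXM1 and MYB-containing complexes act on promoters that carry a CHR element and CCAAT boxes. In the thymus much of the division takes place among immature thymocytes around the pre-T cell receptor checkpoint.

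The study profiled total RNA (about 300 ng an array) on Illumina MouseWG-6 v2.0 beadchips, and its title asks whether leukaemias begun by Lmo2, a transcriptional cofactor, depend on it later. 3 groups of C57BL/6 samples were compared. The first comprises 3 cell lines, numbered 3, 175 and 261 in the labels, derived from T cell leukaemias of mice that carry Lmo2 under the CD2 promoter, which is active in T cells. Each line is represented by 1 array. The second comprises 3 thymus samples labelled Lmo2 transgenic, and the third 3 wild-type thymus samples. The labels give no ages, and they do not say that the thymus samples came from separate animals, so the p-values measure the spread between these samples. All values below are log2 intensities after background correction and quantile normalization, and a gene was called changed where its Benjamini-Hochberg adjusted p in limma, over all 10072 genes, was under 0.05.

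Some facts of the whole series touch the results below. Lmo2 itself read 4.53 ± 0.29 in the lines, where it was not detected, 6.20 ± 0.76 in labelled transgenic thymus and 8.06 ± 0.14 in wild-type thymus (SD, n = 3 each), which goes against the transgenic label, so those samples are called labelled transgenic throughout, and whether this probe reads the transgene is not known. Labelled transgenic arrays 1 and 2 carried Xist (12.66 and 11.37) and array 3 did not (4.49), while the wild-type arrays carried the Y-linked Eif2s3y (9.44 to 9.96). In lines 3, 175 and 261 Eif2s3y read 9.56, 4.36 and 4.46, and Xist read 4.49, 5.47 and 4.34. The lines correlated with each other at r = 0.912 to 0.940, labelled transgenic arrays at 0.944 to 0.967 and wild-type arrays at 0.978 to 0.992. Of 9 measured macrophage and granulocyte markers, all 9 were undetected on every line array, and their summed intensity was 207 to 214 in the lines, 3797 to 14423 in labelled transgenic thymus and 4527 to 7653 in wild-type thymus. Of 9 NK and cytotoxic markers 6 were undetected in the lines, with sums of 535 to 596, against 2901 to 5620 in labelled transgenic thymus and 11074 to 12073 in wild-type thymus. Of 8 MHC class II and dendritic markers 6 were undetected in the lines, with sums of 319 to 849.7, against 2215 to 9233 in labelled transgenic thymus and 16523 to 19329 in wild-type thymus. The thymocyte and T cell list summed to 40779 to 77303 in the lines, 59628 to 71527 in labelled transgenic thymus and 75928 to 80181 in wild-type thymus. The list of double-negative progenitor stages, of which 4 were measured, summed to 94.7 to 1002 in the lines, where Kit was not detected, against 4313 to 13008 in labelled transgenic thymus and 4213 to 4780.3 in wild-type thymus. The part these cells play in the differences below was not tested, and in such bulk samples fewer cells of a type and less RNA per cell cannot be told apart.

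The D-type cyclins separated the 3 lines from each other more than any other members did. Ccnd1, encoding cyclin D1, read 5.43 in line 3, 5.55 in line 175 and 11.09 in line 261. Thymus gave 7.37, 6.21 and 6.26 for the labelled transgenic samples 1, 2 and 3, and 7.64, 7.72 and 7.99 for the wild-type samples. Line 261 stood above all 6 thymus arrays and the other lines stood below all 6. Ccnd2, encoding cyclin D2, showed another arrangement, with 10.25 in line 3 and, where it was not detected, 4.66 in line 175 and 4.38 in line 261. Labelled transgenic arrays gave Ccnd2 values of 11.67, 10.76 and 7.97, and wild-type arrays gave 11.65, 11.85 and 12.13. All 3 lines were therefore below all 3 wild-type arrays, and line 3 alone lay within the labelled transgenic range. Ccnd3, encoding cyclin D3, read 10.29 in line 3, 13.51 in line 175 and 12.96 in line 261, against 12.89, 12.81 and 13.33 in labelled transgenic thymus and 12.91, 12.54 and 12.72 in wild-type thymus. Here line 3 was the low culture, below every thymus array, and lines 175 and 261 were above every wild-type array. Line 3 thus retained Ccnd2 signal and had the lowest Ccnd3 signal, line 261 had the high Ccnd1 signal, and line 175 was low for Ccnd1 and Ccnd2 and above all 6 thymus arrays for Ccnd3.

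**Figure D1:**
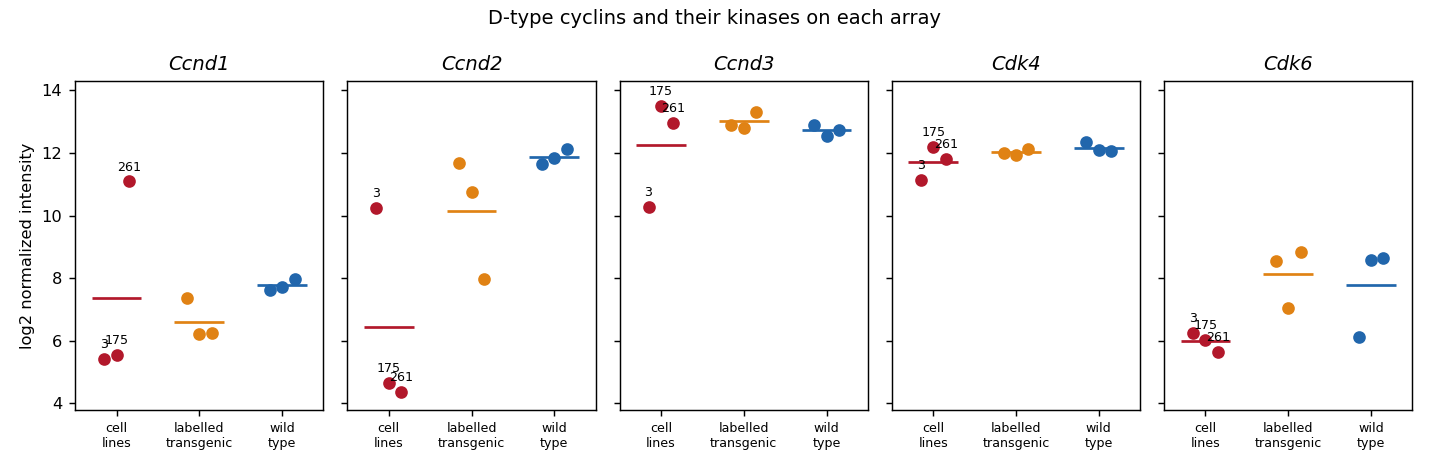
Log2 intensity of the D-type cyclins and of their kinases Cdk4 and Cdk6 on each array, with each group's mean as a bar, for cell lines, labelled transgenic thymus and wild-type thymus. Ccnd1 is high in line 261, Ccnd2 is detected in line 3 and not in the other lines, and Ccnd3 is low in line 3.

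Averaged over lines, these patterns gave a single call. Ccnd2 fell by 5.44 ± 1.48 (SE) in the lines against wild-type thymus, with an adjusted p of 0.0390, and its level in lines 175 and 261 is only a bound set by background. Without line 3 the Ccnd2 difference was -7.35 (adjusted p 2.22e-05), and without line 175 or line 261 the adjusted p was 0.0940 or 0.0848. Without any single wild-type array it was 0.101 to 0.125, so the call depends on which arrays enter. Ccnd1 differed by -0.43 ± 1.44 and was called lower, by 2.29 with an adjusted p of 0.00148, only once line 261 was left out. Its values in lines 3 and 175, 5.43 and 5.55, lie near the lowest detected signal of those arrays, 5.32 and 5.33. Ccnd3 differed by -0.47 ± 0.78 on its main probe, and its other kept probes differed by 1.71 ± 1.32 and 0.58 ± 0.43, none of them called. The other kept probe of Ccnd1 gave -0.23 ± 1.47 and those of Ccnd2 gave -3.58 ± 0.53 and -5.14 ± 1.27.

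No other member spread so widely over the lines. The range over the lines was 5.66 for Ccnd1, 5.87 for Ccnd2 and 3.22 for Ccnd3, and these were the only members past 2 log2 units, 6.82% of the 44. The same spread was passed by 868 of all 10072 genes, or 8.62%, so a share of this size is near the background, and the median range was 0.60 for members and 0.62 for all genes. The widest member inside that bound was Cenpa, with a range of 1.61.

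The kinase partners of these cyclins varied less among the lines. Cdk4 read 11.14, 12.19 and 11.82 in lines 3, 175 and 261, against 12.00, 11.94 and 12.14 in labelled transgenic thymus and 12.36, 12.09 and 12.07 in wild-type thymus, and was not called. Cdk6 read 6.27, 6.03 and 5.66 in the lines, against 8.54, 7.05 and 8.83 in labelled transgenic thymus and 6.13, 8.59 and 8.65 in wild-type thymus. Every line lay below every labelled transgenic array, and Cdk6 fell by 2.15 ± 0.48 in that comparison (adjusted p 0.0304). Against wild-type thymus the lines overlapped wild-type array 1, and the Cdk6 difference of -1.81 ± 0.67 was not called (adjusted p 0.0923). Without that array it was -2.64 with an adjusted p of 0.00360. The other probe of Cdk4 against labelled transgenic thymus differed in sign, at 0.13 ± 0.34, also uncalled.

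Within G1/S control, cyclin E1 was the gene that separated the lines from thymus most. Ccne1, encoding the cyclin that activates CDK2 at the start of S phase, read 8.89, 8.68 and 8.15 in lines 3, 175 and 261. It read 6.25, 6.59 and 6.90 in labelled transgenic thymus, against 7.46, 7.11 and 6.98 in wild-type thymus. All lines were above all 6 thymus arrays. Ccne1 rose by 1.39 ± 0.26 against wild-type thymus (adjusted p 0.0114) and by 1.99 ± 0.29 against labelled transgenic thymus (adjusted p 0.0092), or 2.62-fold and 3.97-fold. E2f3, encoding an activating E2F, read 8.62, 8.63 and 8.54 in the lines, 7.93, 7.59 and 8.01 in labelled transgenic thymus, and 7.72, 8.10 and 8.03 in wild-type thymus. The lines again did not overlap thymus, and the rise of 0.65 ± 0.18 against wild-type thymus was called near the threshold (adjusted p 0.0443). A second kept E2f3 probe gave 0.70 ± 0.39 and was not called, and the call was kept under 6 of 15 alternative settings.

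The other G1/S members were not called in either comparison of lines with thymus on their main probe. Against wild-type thymus, Ccne2, encoding the second cyclin E, differed by -0.72 ± 0.35, Cdk2, the kinase of both cyclins E, by -0.50 ± 0.33, and the E2F genes E2f1 and E2f2 by 0.46 ± 0.36 and -0.38 ± 0.23. The E2F restrainers Rb1 and Rbl1 differed by 0.55 ± 0.22 and -0.11 ± 0.20. Rb1 was above all thymus arrays in every line, at 10.81, 10.22 and 10.72, against 9.55, 9.78 and 9.85 in labelled transgenic thymus and 10.05, 10.19 and 9.87 in wild-type thymus. The other Rb1 probe was called higher, by 1.29 ± 0.29 against wild-type thymus and by 1.35 ± 0.33 against labelled transgenic thymus, with adjusted p-values over all kept probes of 0.0172 and 0.0382. Probes also disagreed in sign, without a call, for Cdk2 (-0.50 ± 0.33 and 0.10 ± 0.39), E2f2 (-0.38 ± 0.23 and 0.70 ± 0.42) and Rbl1 (-0.11 ± 0.20 and 0.49 ± 0.18).

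Replication genes gave no call against wild-type thymus: 0 of 15 were called in the lines by limma, 2 had an unadjusted p under 0.05, and the median difference was 0.08, the same to 2 decimals as over all 10072 genes (0.08), of which 24.5% were called. This closeness of the medians depends on the processing: under median scaling the replication median was 0.30, with 13 of 15 positive, while that of all genes was -0.07, and with the mean of all kept probes it was 0.23, with 11 of 15 positive, against 0.12 for all genes. Without wild-type array 1 it was 0.24. The replication count was 0 of 15 under each of these, and the mitotic median was 0.97, 0.85 and 0.84 in the same order. The helicase subunits Mcm2 to Mcm7 lay between -0.26 (Mcm4) and 0.32 (Mcm7). Mcm5, as an example, read 12.84, 13.39 and 12.88 in lines 3, 175 and 261, against 12.74, 12.67 and 13.06 in labelled transgenic thymus and 13.13, 13.20 and 13.18 in wild-type thymus, and the groups overlapped. The licensing factors Cdc6 and Cdt1 differed by 0.08 ± 0.17 and -0.08 ± 0.18, their inhibitor Gmnn by 0.02 ± 0.36, and the sliding clamp Pcna by -0.38 ± 0.26. The deoxynucleotide enzymes Rrm1, Rrm2 and Tyms differed by 0.22 ± 0.25, 0.52 ± 0.34 and -0.29 ± 0.25. An Mcm6 probe other than the main one fell by 0.71 ± 0.21 (adjusted p 0.0418 over kept probes), the main probe gave -0.20 ± 0.19 and a further probe gave 0.29 ± 0.86. The 4 other kept probes of Tyms gave 0.34 to 0.76, opposite in sign to its main probe and uncalled. The 2 other Mcm4 probes gave 0.58 ± 0.67 and 0.52 ± 0.89. The other kept probes of Cdc6 and Mcm7 gave larger differences than the main ones, 1.22 ± 0.44 and 1.04 ± 0.77, also uncalled.

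The exceptions in size were subunits of the GINS complex, which joins the MCM ring to form the active helicase. Gins2 read 9.93, 10.99 and 10.56 in lines 3, 175 and 261, against 9.04, 8.92 and 9.60 in labelled transgenic thymus and 9.78, 9.41 and 9.59 in wild-type thymus. Each line was above each thymus array, with line 3 nearest to thymus. Gins2 rose by 1.31 ± 0.34 against labelled transgenic thymus (adjusted p 0.0455) and differed by 0.90 ± 0.30 against wild-type thymus without a call (adjusted p 0.0671). Gins1 read 10.16, 11.63 and 10.94 in the lines, 9.28, 9.31 and 9.89 in labelled transgenic thymus, and 10.26, 9.78 and 9.73 in wild-type thymus. Line 3 lay inside the wild-type range of Gins1 and its uncalled difference was 0.98 ± 0.38 (adjusted p 0.104). When line 3 was left out, Rrm2, Gins1 and Gins2 were called higher against wild-type thymus, so the replication count was 3 of 15, beside 14.8% of all genes called higher with that line left out (12.1% with it).

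Most of the members that rose were mitotic. Against wild-type thymus 8 of 16 measured mitotic members rose in the lines and 0 fell, beside 12.1% of all genes that rose and 12.4% that fell. The median mitotic difference was 0.75, 13 of 16 differences were positive, and in 10 of 16 all 3 lines were above all 3 wild-type arrays, which held for 24.6% of all genes. In 1 of 16 all lines were below, beside 21.6% of all genes, so 11 of 16 did not overlap, beside 46.2%. Over all 44 members 10 rose and 1 fell, with a median of 0.20.

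The phosphatases that activate CDK1 had the largest mitotic differences from wild-type thymus. Cdc25c read 8.39, 8.87 and 8.23 in lines 3, 175 and 261, against 5.69, 6.84 and 7.07 in labelled transgenic thymus and 6.75, 6.30 and 6.43 in wild-type thymus. Every line exceeded every thymus array by more than 1 log2 unit. Cdc25c rose by 2.00 ± 0.24 against wild-type thymus (4.01-fold, adjusted p 0.00206) and by 1.96 ± 0.40 against labelled transgenic thymus (3.89-fold, adjusted p 0.0242). Cdc25b read 8.61, 8.19 and 8.54 in the lines, 7.80, 9.63 and 7.62 in labelled transgenic thymus, and 7.64, 6.29 and 6.60 in wild-type thymus. It rose by 1.61 ± 0.37 against wild-type thymus (adjusted p 0.0230), while labelled transgenic array 2 exceeded all lines and the difference from that group was 0.10 ± 0.54. Cdk1, the kinase that these phosphatases activate, read 11.19, 11.63 and 11.20 in the lines, 10.14, 10.45 and 10.91 in labelled transgenic thymus and 10.79, 11.02 and 10.41 in wild-type thymus. All lines were above all thymus arrays, yet the Cdk1 difference of 0.60 ± 0.24 was not called (adjusted p 0.105).

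Cdc20, the activator that directs the anaphase-promoting complex to cyclin B and securin, varied little within the lines and within wild-type thymus. It read 12.07, 12.26 and 12.09 in the lines, against 10.86, 10.68 and 11.55 in labelled transgenic thymus and 11.21, 11.13 and 11.14 in wild-type thymus. It rose by 0.98 ± 0.17 against wild-type thymus (1.97-fold, adjusted p 0.00822) and by 1.11 ± 0.28 against labelled transgenic thymus (adjusted p 0.0417). Its 3 other kept probes were higher against labelled transgenic thymus by 1.19 to 2.80 without a call.

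Of the mitotic kinases Aurka, Aurkb and Plk1 rose, as did a partner of Aurkb. Aurka, the kinase of the spindle poles, read 10.72, 10.51 and 10.79 in the lines, against 9.49, 9.64 and 9.97 in labelled transgenic thymus and 9.85, 10.05 and 9.45 in wild-type thymus. It rose by 0.89 ± 0.22 against wild-type thymus (adjusted p 0.0289) and by 0.97 ± 0.23 against labelled transgenic thymus (adjusted p 0.0339). Aurkb and Birc5, the kinase and the survivin subunit of the chromosomal passenger complex, rose by 0.83 ± 0.22 and 0.98 ± 0.22 against wild-type thymus (adjusted p 0.0385 and 0.0232). Birc5 read 12.09, 12.57 and 12.63 in the lines, 11.02, 11.30 and 11.87 in labelled transgenic thymus, and 11.65, 11.44 and 11.25 in wild-type thymus, without overlap. Against labelled transgenic thymus its main probe differed by 1.03 ± 0.30 and missed the threshold (adjusted p 0.0593), while 2 other probes rose by 1.35 ± 0.30 and 1.17 ± 0.29. Plk1, a kinase of mitotic entry, rose by 0.88 ± 0.23 against wild-type thymus (adjusted p 0.0357), with 11.41, 11.81 and 11.17 in the lines, 9.22 to 11.15 in labelled transgenic thymus and 10.35, 10.76 and 10.64 in wild-type thymus. Labelled transgenic array 3 came close to line 261. Kif11, the motor that pushes spindle poles apart, rose by 0.92 ± 0.25 (adjusted p 0.0375), with 10.23, 10.69 and 10.25 in the lines against 9.85, 9.38 and 9.19 in wild-type thymus.

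The remaining mitotic members were not called on their main probes. Foxm1, the transcription factor of mitotic genes, differed by 0.68 ± 0.44 against wild-type thymus, with line 3 at 8.44, inside the wild-type range of 8.11 to 9.15, and lines 175 and 261 at 9.48 and 9.90, above it. The checkpoint genes Mad2l1, Bub1b and Ttk differed by 0.46 ± 0.19, -0.30 ± 0.18 and -0.28 ± 0.21. Bub1b was the only mitotic member with all lines below all wild-type arrays, at 11.19, 11.35 and 11.03 against 11.48, 11.58 and 11.41, and its second probe differed by 0.37 ± 0.24. The topoisomerase gene Top2a differed by -0.09 ± 0.27 and Ccna2, encoding cyclin A2, by 0.06 ± 0.26, with Ccna2 dim on all arrays (4.85 to 6.01). Cenpa, encoding the histone of centromeres, differed by 0.32 ± 0.42 on its main probe and rose by 2.28 ± 0.48 on another (adjusted p 0.0145 over kept probes). Another Top2a probe fell by 0.91 ± 0.25 (adjusted p 0.0371).

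**Figure D2:**
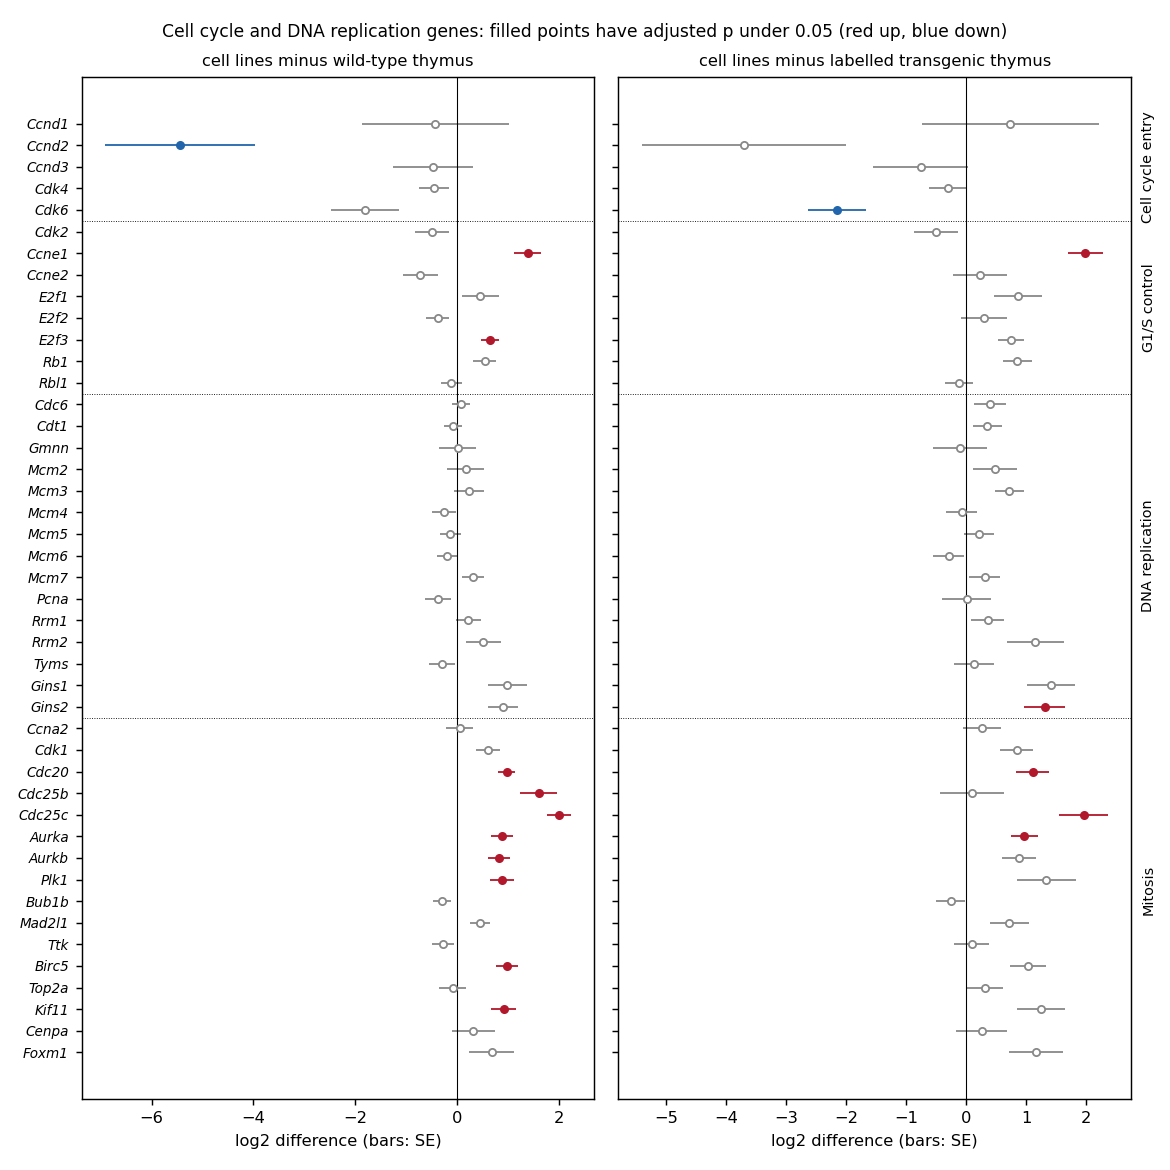
Log2 difference with its standard error for the 44 measured members, lines minus wild-type thymus and lines minus labelled transgenic thymus, grouped by role, with called members marked. The mitotic members lie mostly right of 0, with a median of 0.75 against wild-type thymus, and the replication members lie around 0, with a median of 0.08.

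Among the measured members, the contrast between mitotic genes and those of G1/S control and replication was present in each line. Each member was taken relative to its wild-type mean and averaged over its list on each array. The mitotic average was 0.53, 0.82 and 0.63 in lines 3, 175 and 261, and the replication average was -0.14, 0.36 and 0.21. The mitotic average minus that of the 23 G1/S and replication members was 0.62, 0.47 and 0.44 in the lines, 0.09, 0.32 and 0.26 on labelled transgenic arrays 1, 2 and 3, and 0.12, -0.02 and -0.10 on the wild-type arrays. The 3 lines lay above all 6 thymus arrays on this measure. Line 3 reached the widest gap with the lowest replication average, and line 175 had the highest average of both kinds. Counted by member, 8, 12 and 11 of 16 mitotic members were above all 6 thymus arrays in lines 3, 175 and 261, against 2, 7 and 6 of 15 replication members and 3, 4 and 4 of 8 G1/S members. The same held for 33.0%, 34.0% and 32.3% of all genes in lines 3, 175 and 261. The difference between the lists was described and not tested, because the members were chosen with results of these data known.

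**Figure D3:**
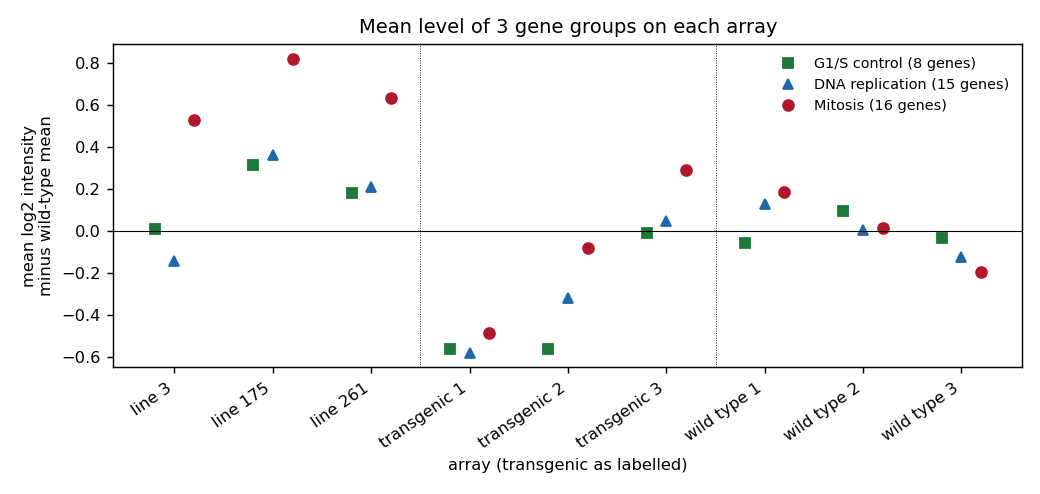
Mean over list members of the log2 difference from the wild-type mean, for each array and for the mitotic, replication and G1/S lists. The mitotic mean is 0.53 to 0.82 in the lines, above the replication mean of the same array in every line.

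The mitotic count depended on which arrays entered, and on the model and scaling. It was 8 of 16 against wild-type thymus with all arrays, 2 without wild-type array 2 or 3, 6 without wild-type array 1, 3 without line 261 and 4 without line 175. The share of all genes that rose also varied, at 4.43% and 3.29% without wild-type arrays 2 and 3, 7.02% without wild-type array 1, 10.5% without line 261 and 9.21% without line 175, and the median over all members was 0.07 to 0.42 over such omissions. With every array kept, 4 of 16 mitotic members rose in the fit of all 9 arrays and 3 with the replicate block. The shares of all genes that rose were 12.6% and 5.7%. Under median scaling 10 of 16 rose and 1 fell, beside 10% and 16.4% of all genes. Cdc20 and Cdc25c were called under all 15 alternative settings, with a highest adjusted p of 0.0492 for Cdc20 and 0.0170 for Cdc25c. Of the called members with another kept probe, 6 had 10 such probes, all in the same direction and 9 of them called.

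Because the transcription factors named above act through separate elements, the promoters of the members were searched for the letters of these elements. Windows from 250 bases before to 50 after the start were taken from RefSeq on GRCm38.p6. There 37 of the 50 members have an entry. A member with several starts, as 4 had, counted as matched where any window matched. The share over all promoters counts each window singly. The E2F element was searched as TTTCCCGC, TTTGGCGC, TTTGCCGC or TTTCGCGC, the CHR element as TTTGAA or TTCGAA and the NF-Y element as CCAAT, each on both strands. TTCGAA is its own reverse complement. E2F letters were found at 4 of 6 G1/S genes, 6 of 11 replication genes and 1 of 17 mitotic genes, against 2.26% of all 32851 promoters. CHR letters were found at 13 of 17 mitotic genes (76.5%), 2 of 6 G1/S genes and 2 of 11 replication genes, against 19.2% of all promoters. CCAAT was found at 15 of 17 mitotic (88.2%), 8 of 11 replication and 3 of 6 G1/S genes, against 37.4% of all, and CHR and CCAAT letters occurred together at 13 of 17 mitotic, 2 of 6 G1/S and 2 of 11 replication genes (76.5%, 33.3% and 18.2%), against 7.52% of all. A CHR match starting within 50 bases of the start, a window chosen after the positions were seen, occurred at 12 of 17 mitotic genes, 2 of 6 G1/S genes and 0 of 11 replication genes, against 5.31% of all promoters. The letters did not separate called from uncalled mitotic genes, since 5 of 6 called and 5 of 6 uncalled measured genes with an entry held CHR letters. A match describes these letters only and shows no binding.

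The sequences below show that arrangement for the called mitotic genes Cdc20 and Kif11 and the uncalled Cdk1, then for the replication genes Cdc6, Mcm5 and Mcm6. Each is the 160 bases before the start, 5′ to 3′ on the gene's strand, with matched letters in capitals. They lie at chr4:118437344-118437503 (minus strand) for Cdc20, chr19:37376222-37376381 (plus) for Kif11, chr10:69352913-69353072 (minus) for Cdk1, chr11:98907991-98908150 (plus) for Cdc6, chr8:75109349-75109508 (plus) for Mcm5 and chr1:128359706-128359865 (minus) for Mcm6.
Cdc20: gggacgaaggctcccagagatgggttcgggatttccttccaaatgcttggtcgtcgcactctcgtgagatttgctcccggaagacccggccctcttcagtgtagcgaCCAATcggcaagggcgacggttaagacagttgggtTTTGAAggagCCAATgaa
Kif11: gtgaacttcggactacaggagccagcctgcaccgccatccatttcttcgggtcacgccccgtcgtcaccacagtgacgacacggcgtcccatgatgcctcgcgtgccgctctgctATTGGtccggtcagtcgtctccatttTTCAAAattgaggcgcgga
Cdk1: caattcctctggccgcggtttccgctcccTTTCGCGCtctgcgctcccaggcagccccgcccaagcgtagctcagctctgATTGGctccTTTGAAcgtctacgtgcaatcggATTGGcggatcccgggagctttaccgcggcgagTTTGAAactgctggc
Cdc6: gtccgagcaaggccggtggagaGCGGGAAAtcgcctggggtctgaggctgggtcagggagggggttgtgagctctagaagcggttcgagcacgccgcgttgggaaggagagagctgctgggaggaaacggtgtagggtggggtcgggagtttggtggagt
Mcm5: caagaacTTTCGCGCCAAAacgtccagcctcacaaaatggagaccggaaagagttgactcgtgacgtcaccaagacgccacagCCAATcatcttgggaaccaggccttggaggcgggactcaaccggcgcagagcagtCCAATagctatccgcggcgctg
Mcm6: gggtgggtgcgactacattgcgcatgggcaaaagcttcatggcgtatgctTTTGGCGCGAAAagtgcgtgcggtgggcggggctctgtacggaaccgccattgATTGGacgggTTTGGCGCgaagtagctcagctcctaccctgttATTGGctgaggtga
In Cdc20 the CHR letters begin at base -18 and CCAAT at -53 and -8, and in Kif11 they begin at -19 and -45 on the opposite strand. Cdk1 holds CHR letters at -71 and -15, CCAAT at -80 and -48 and, in the stretch shown, an E2F match at -131, the only E2F match among the mitotic genes searched. Cdc6 has E2F letters at -138 and neither of the other elements in the stretch shown. Mcm5 and Mcm6 have E2F letters on both strands that overlap, starting at -153 and -149 in Mcm5 and at -110 and -106 in Mcm6, with a further match at -47 in Mcm6. Of these genes, the mitotic Cdc20 and Kif11 were called higher in the lines against wild-type thymus, and Cdk1, Cdc6, Mcm5 and Mcm6 were not called. Other called members differed from these examples. Ccne1 and the mitotic Birc5 held none of the E2F, CHR and CCAAT letters in their windows, and E2f3 held all of them. Any link between these letters and the calls was not tested.

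**Figure D4:**
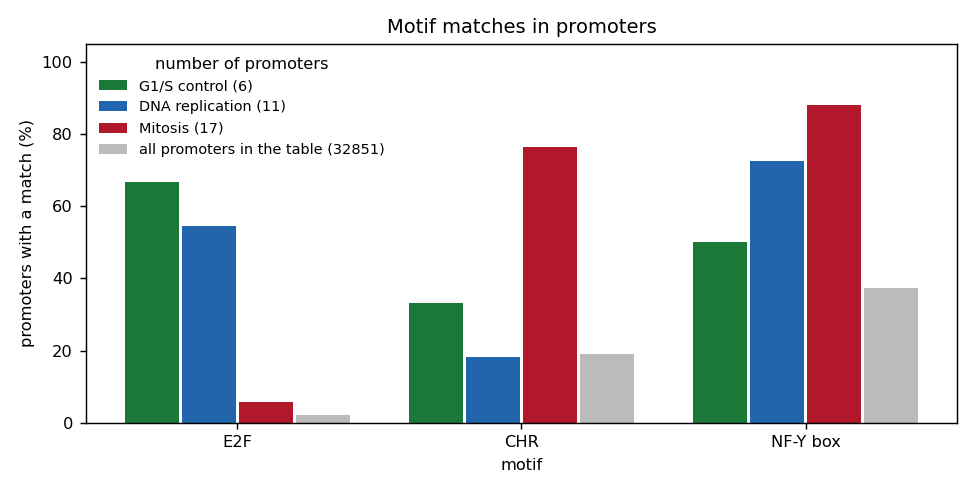
Percent of promoters with E2F, CHR and NF-Y letters. Bars give the G1/S control, replication and mitotic members with a RefSeq promoter, and all promoters. CHR letters are found at 76.5% of mitotic members against 19.2% of all promoters. E2F letters are found at 66.7% of G1/S, 54.5% of replication and 5.88% of mitotic members, against 2.26% of all.

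Against labelled transgenic thymus the same arrays of the lines gave fewer calls: 5 members rose (Ccne1, Gins2, Cdc20, Cdc25c and Aurka) and Cdk6 fell, among 7.23% of all genes that rose and 8.45% that fell. The median difference was 0.86 for mitotic members, with 15 of 16 positive and 3 called, 0.36 for replication members with 1 of 15 called, 0.53 for G1/S members with 1 of 8 called, and 0.06 over all genes. All 3 lines were above all 3 labelled transgenic arrays for 14 of 44 members, beside 22.1% of all genes. They were all below for 1 member, Cdk6, beside 20.3%, so 15 of 44 did not overlap, beside 42.4%. Labelled transgenic and wild-type comparisons share the 3 lines, so they are no independent check of each other. No member was called with labelled transgenic arrays 1 and 2 left out, when 68 genes were called in all, and Ccne1 was the only call without line 175, line 261 or labelled transgenic array 1. The Cdc6 probe that is not its main one was called higher, by 1.58 ± 0.39 (adjusted p 0.0388 over kept probes), while the main probe gave 0.40 ± 0.27. The 2 other Gins2 probes were 1.81 ± 0.56 and 1.26 ± 0.37 and missed the threshold.

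Labelled transgenic thymus against wild-type thymus gave no called member. Of the 44, 0 were called by limma and 4 had an unadjusted p under 0.05, beside 4.68% of all genes called (2.29% higher and 2.38% lower). The differences were negative for 35 of 44, with a median of -0.28, against 0.00 over all genes. This was uneven over the arrays. On labelled transgenic arrays 1, 2 and 3, 36, 25 and 7 of 44 members were below all wild-type arrays, beside 33.0%, 32.8% and 30.7% of all genes, and the median difference from the wild-type mean was -0.52, -0.33 and 0.12. On array 3, 8 of 16 mitotic members were above all wild-type arrays, beside 29.5% of all genes, and 0 were below, with a median of 0.28. Arrays 1 and 2 are those with Xist signal, and the marker sums given above also differ between these groups, and the part of either was not tested.

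**Figure D5:**
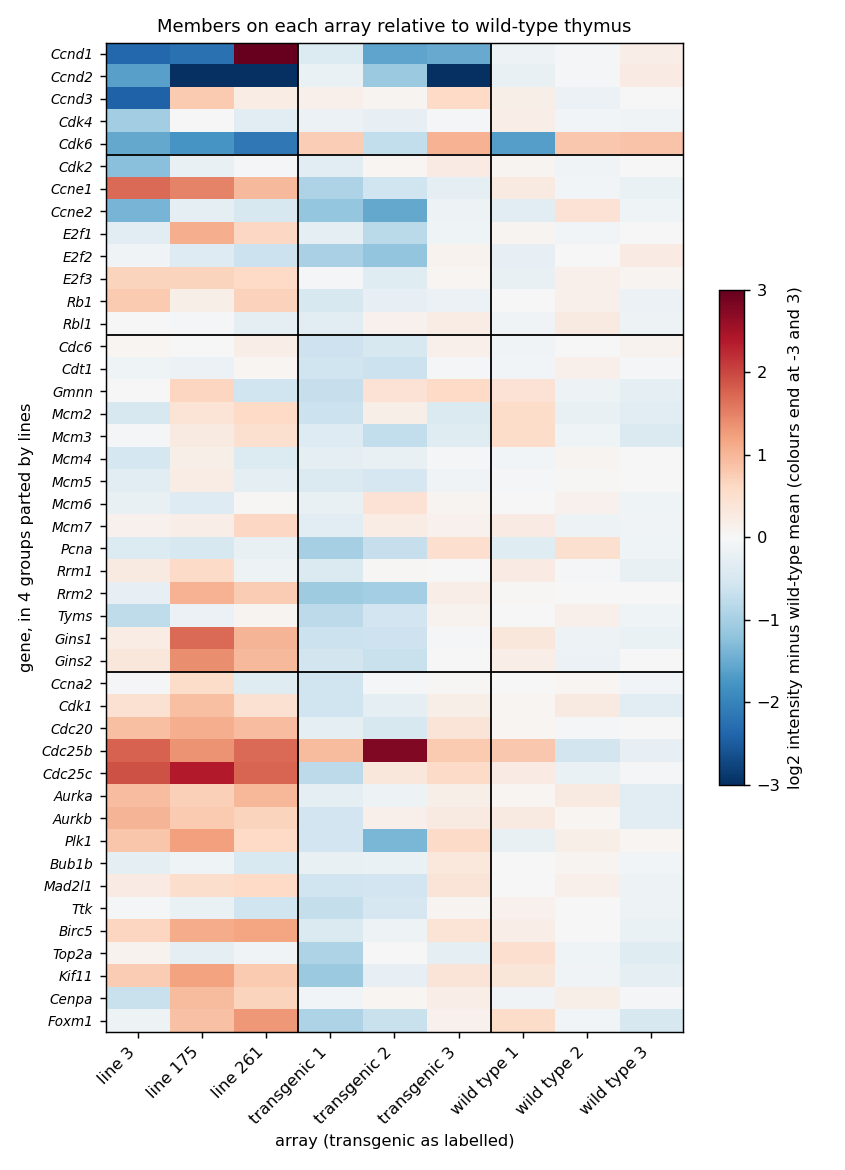
Log2 difference of each measured member from its wild-type mean on each array, with members grouped by role. Most members are below the wild-type mean on labelled transgenic arrays 1 and 2, and most mitotic members are above it in each line.

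Individual differences in that comparison depended on 1 array. Ccnd1 differed by -1.17 ± 0.33 (adjusted p 0.112) and was called lower without labelled transgenic array 1 (-1.55, adjusted p 0.00967). Ccnd2 differed by -1.74 ± 0.84 (adjusted p 0.382), with array 3 at 7.97 far below arrays 1 and 2. With arrays 1 and 2 left out, array 3 alone differed from wild-type thymus by -3.90 for Ccnd2 (adjusted p 0.000748) and by -1.52 for Ccnd1 (adjusted p 0.0142), in a fit where the lone array is assumed to vary like the other group. Rrm2 differed by -0.63 ± 0.34 and was called lower without array 3 (-1.05, adjusted p 0.0265).

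Genes of the same pathways outside the 50 were read from lists of related function. Against wild-type thymus 11 of 30 measured kinetochore and spindle checkpoint genes rose in the lines and 0 fell, with a median of 0.67, beside 12.1% of all genes that rose, 12.4% that fell and a median of 0.08. These included Ska3, Nsl1 and Spc24, which help attach microtubules to kinetochores, at 1.74 ± 0.23, 1.59 ± 0.45 and 1.58 ± 0.24. Of 21 spindle motor and cytokinesis genes 4 rose, among them the motors Kifc1 (1.41 ± 0.28), Kif18b (1.35 ± 0.25) and Kif2c (1.11 ± 0.21). Of 19 anaphase-promoting complex and mitotic regulator genes 4 rose, led by Ube2s, the ubiquitin-conjugating enzyme that extends chains on that complex's substrates, at 2.21 ± 0.26. The share that rose was 36.7% in the kinetochore list, 21.1% in the regulator list and 19% in the motor list. The motor and regulator shares were nearer to the share of all genes. In the condensin and cohesin list 0 of 20 rose and 2 fell, the cohesin subunits Stag1 (-1.15 ± 0.17) and Smc3 (-0.91 ± 0.22).

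Replication genes outside the 50 included calls. Of 33 origin and replisome genes 7 rose and 0 fell against wild-type thymus, with a median of 0.24, a share of 21.2% beside 12.1% of all genes. They included Dbf4, the activating subunit of the CDC7 kinase (0.98 ± 0.21), the clamp loader subunit Rfc3 (1.15 ± 0.27) and the origin recognition subunit Orc5 (0.88 ± 0.23). Of 9 genes of nucleotide supply 2 rose (22.2%). Shmt2, a mitochondrial enzyme of folate metabolism, and the thymidine kinase Tk1 rose, by 1.35 ± 0.27 and 0.75 ± 0.19. The origin and replisome share (21.2%) was close to the motor and regulator shares (19% and 21.1%), whose medians were 0.28 and 0.39. Of the mitotic lists outside the 50, only the kinetochore list (36.7%, median 0.67) stood clearly above it. The contrast of mitotic with replication members was thus not general to these wider lists. Among 12 E2F and pocket protein partners 0 were called by limma and 1 had an unadjusted p under 0.05. Against labelled transgenic thymus the counts called higher were 5 of 30 kinetochore, 3 of 21 motor, 1 of 19 anaphase-promoting complex, 3 of 33 origin and replisome and 3 of 9 nucleotide supply genes, with Spc24 at 2.09 ± 0.38 and Shmt2 at 1.98 ± 0.28. Over all genes 7.23% rose in that comparison, near the shares of the anaphase-promoting complex (5.26%) and origin and replisome lists (9.09%). Of 20 condensin and cohesin genes Espl1, encoding separase, rose by 1.05 ± 0.23 and Stag1 fell by 0.86 ± 0.22. Of these lists, none had a call between labelled transgenic and wild-type thymus.

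CDK inhibitors are the brakes on the same kinases. Of 8 measured, 4 rose and 0 fell in the lines against wild-type thymus, beside 12.1% of all genes that rose and 12.4% that fell. Cdkn1c, encoding p57, rose by 3.95 ± 0.61, and Cdkn3, encoding a phosphatase of CDKs, by 1.82 ± 0.32. Cdkn2a was at least 102-fold higher (adjusted p 7.89e-06) and Cdkn2b at least 2.00-fold higher (adjusted p 0.0112), both being not detected in wild-type thymus. Cdkn1b, Cdkn2c and Cdkn2d differed by 0.21 ± 0.42, 0.88 ± 0.33 and 0.77 ± 0.29 without a call. Against labelled transgenic thymus 1 of 8 rose, Cdkn2a, by 5.72 ± 0.28, a share of 12.5% that is near the 7.23% of all genes. In labelled transgenic against wild-type thymus Cdkn2d rose by 1.01 ± 0.21, Cdkn2a was at least 1.92-fold higher, and Cdkn1a fell by 2.70 ± 0.36. Over all genes 2.29% rose and 2.38% fell in that comparison.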

How the data were processed

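Per the file headers, 9 arrays of 45281 probes each have an intensity and a detection p-value in the authors' deposited raw table. The deposited normalized table and value table hold the authors' log2 values and differ by 0 at most. The submitters' processing notes name BeadStudio and limma without versions. Raw values went through neqc in limma 3.58.1 under R 4.3.3 (normexp background, offset 16, quantile normalization, log2) and correlated at r = 0.999 with the authors' log2 table.

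Probes with a detection p-value under 0.05 on at least 3 arrays were kept (19490), and the probe with the highest mean stood for a gene, which gave 10072 genes, 4088 of them with more than 1 kept probe. Symbols came from the platform annotation, which gives 34885 probes a single symbol. Through Entrez identifiers 34807 entries matched a RefSeq gene table and 0 symbols changed. Members had 104 probes, of which 88 were kept, and 26 members had more than 1. No level was compared between probes.

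Each comparison was fitted with lmFit and eBayes on its own 6 arrays, two-sided, with Benjamini-Hochberg adjustment over all genes. Among the alternatives were background, offset, scaling, filter, probe choice, a fit of all 9 arrays, a replicate block and each array left out. The number of arrays limits the precision. Where a gene was not detected in a whole group, a fold is given as a lower bound: the higher group's mean over, on each array, the higher of the lowest detected signal and the probe's own. The scripts were tested on simulated data.

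All members and every CDK inhibitor could be named. Of each other pathway list, up to 3 called genes with the largest absolute difference in a comparison could be named. In a list without calls it was the gene of smallest p. Members, lists and tests were chosen with earlier results of these data known.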

Additional observations from a re-analysis of the deposited data

How the results depend on the processing

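Median scaling in place of quantile normalization moved the median of all genes to -0.07 (main 0.08) for lines against wild-type thymus and to -0.04 (main 0.06) against labelled transgenic thymus, and the share of calls that were higher to 38.0% (main 49.4%) and 37.3% (main 46.1%). The median member difference became 0.46 and 0.62. With the mean of all kept probes it was 0.35 (main 0.20) against wild-type thymus and 0.56 (main 0.36) against labelled transgenic thymus. With all 9 arrays in 1 fit, 7 members were called against wild-type thymus, 14 members and 27.7% of genes against labelled transgenic thymus, and 2.98% of genes between the thymus groups. The labels state no pairing. Arrays with the same replicate number had deviations from their group means that correlated at -0.15 to 0.16. With 3 arrays a group this cannot exclude a pairing. With the replicate block, 13.9% of genes and 4 members were called against wild-type thymus, 6.46% and 2 members against labelled transgenic thymus and 2.91% of genes between the thymus groups.

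Leaving out single arrays gave 9.66% to 29.6% of genes called (main 24.5%), 2 to 14 members (main 11) and a median member difference of 0.067 to 0.42 against wild-type thymus. The corresponding ranges were 4.41% to 14.5% of genes (main 15.7%), 1 to 8 members (main 6) and 0.22 to 0.56 against labelled transgenic thymus. Between the thymus groups they were 1.53% to 5.45% of genes (main 4.68%), 0 to 1 members (main 0) and -0.42 to -0.13. The number of genes called moved by over 1.5 times without any 1 wild-type array in both comparisons with wild-type thymus, and without line 175, line 261 or any 1 labelled transgenic array in the other. Leaving out labelled transgenic arrays 1 and 2, an alternative chosen after seeing the data, gave 0.675% of genes, 0 members and a median of 0.19 against that group, and 2 members and a median of 0.12 between the thymus groups.

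No called member changed sign under any alternative. Among uncalled members 13, 20 and 28 changed sign under at least 1 alternative in the 3 comparisons (lines against wild-type, lines against labelled transgenic, labelled transgenic against wild-type). Of the 11 and 6 members called in the lines against wild-type and labelled transgenic thymus, 2 and 0 were called under every alternative, and with 3 arrays a group many calls lie near the threshold. The dim probes of Gmnn, Ccna2 and Ttk were not detected on every array, which limits how far a fall could be seen. The cause of these changes was not tested.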

Other observations

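Members with several kept probes could be read more than once. Against labelled transgenic thymus the main and other probes differed in sign, without a call, for 8 members. Ccnd3 differed by -0.76 ± 0.79 on its main probe and by 1.54 ± 1.60 and 0.26 ± 0.46 on others, and Cdk2 by -0.50 ± 0.37 and by 1.24 ± 0.92 and 0.20 ± 0.46. Mcm4 and Mcm6 gave -0.07 ± 0.26 and -0.29 ± 0.26 on their main probes and up to 0.63 ± 0.88 and 0.42 ± 0.94 on others. Bub1b gave -0.26 ± 0.24 and 0.39 ± 0.22, and Top2a gave 0.31 ± 0.30 and, on others, -0.06 ± 0.35 and -0.40 ± 0.30. Rbl1 gave -0.12 ± 0.24 and 0.07 ± 0.22, and Cdk4 is described above.

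Between labelled transgenic and wild-type thymus the signs differed, without a call, for Cdk2, E2f3, Mcm4, Mcm6, Mcm7 and Tyms. Tyms gave -0.41 ± 0.26 on its main probe and 0.13 ± 0.27 on another, and E2f3 gave -0.11 ± 0.20 and 0.31 ± 0.38.

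The CDK inhibitor Cdkn1a separated line 3 from the other lines. It read 4.64 in line 3, 10.73 in line 175 and 10.15 in line 261, against 6.32, 4.96 and 5.27 on labelled transgenic arrays and 7.96, 8.27 and 8.43 on wild-type arrays, so line 3 was below every wild-type array and the other lines were above all of them.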
